A study of Mus musculus with 17 samples.

Results

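The stretch described here is the flank of the mouse beta-globin locus that lies beyond the CTCF site at the 3′ end of the locus, on the side away from the globin genes. It was taken as chr7:110805000-110952000 of the mm9 build. Its members are the NlaIII restriction fragments whose midpoint lies in that range, and every contact pair with at least 1 such fragment. Seen from the HS2 viewpoint, 9412 of 331928 distinct contact pairs touched the flank, through 621 fragments. Seen from the beta CTCF viewpoint, 50863 of 701591 did, through 622 fragments. The fragments had a median length of 159 bp from HS2 and ranged from 16 to 1732 bp. The profile was read in 37 bins of 4 kb, the outermost of which reaches 1 kb past the range.

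Contacts were measured by Tri-C, in which fixed chromatin is cut with the enzyme NlaIII and religated, and junctions with a chosen viewpoint fragment are captured by oligonucleotides. A read holding the viewpoint and 2 further fragments reports a pair of fragments met together with the viewpoint on a single allele. The erythroid group was primary Ter-119+ cells, a surface marker of the red cell lineage, from spleens of female C57BL/6 mice made anaemic with phenylhydrazine, which the labels give as 3 doses of 40 mg/g body weight at intervals of 12 h with collection after 5 days. The ES group was the embryonic stem cell line E14 of strain 129/Ola. It is 1 line, and the groups also differ in strain, so effects of strain and of cell type cannot be told apart. There were 10 erythroid and 7 ES libraries, which are technical replicates of 3 biological replicates per group. Whether these came from separate animals or cultures is not stated in the labels, so p-values may measure only technical spread.

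HS2 is one of the enhancers in the locus control region of beta-globin, the cluster of elements that drives the globin genes in red cells. CTCF is a DNA-binding protein that halts the cohesin complex as it extrudes chromatin loops. Bound CTCF sites often mark the ends of contact domains, and contacts tend to be fewer across them than within them. The beta-globin locus is embedded in olfactory receptor genes, which code for odour receptors. Whether they are expressed in either cell type was not measured here. In the RefSeq gene order of assembly GRCm38.p6, the genes that follow Hbb-bt on this side are Olfr67, Olfr68, Olfr69, Olfr630, Olfr629 and Olfr628. That table is of another build, so no bin below is assigned to a gene. The design asks which fragments meet in the active and the inactive locus, and the flank shows how far such contacts run past the CTCF site in each cell type.

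The HS2 viewpoint was centred at position 111009846, so the flank began 57.8 kb from it and ended 204.8 kb away, with the CTCF site in between. The beta CTCF viewpoint was centred at 110955489, so the flank began 3.49 kb from it. Flank contact pairs numbered between 3130 and 16936 per replicate from HS2, and between 8519 and 116292 from beta CTCF. Within a library, a distinct flank pair was counted 3.63 to 6.28 times on average over the libraries of a replicate. The reads carry no molecular identifiers, and whether repeat counts of a pair are separate molecules or copies of the same molecule was not tested. If they include copies, counting errors understate the true error.

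ES replicate 1 stood apart from the other ES replicates. From beta CTCF its 37-bin profile had a Pearson correlation of 0.964, 0.970 and 0.969 with the 3 erythroid replicates, but 0.735 and 0.734 with ES replicates 2 and 3. ES replicates 2 and 3 correlated at 0.856 with each other and between 0.649 and 0.715 with the erythroid replicates. Its depth was erythroid-like too, at 785662 counts from beta CTCF against 93686 and 125570 in ES replicates 2 and 3 and 658673 to 1082506 in the erythroid replicates. From HS2 its profile correlated at 0.685 to 0.842 with the erythroid replicates and at 0.621 and 0.661 with the other ES replicates. These correlations describe 37 neighbouring bins of shared libraries and carry no test. Depth moved with the resemblance, and its part in it was not tested. Whether the libraries of ES replicate 1 hold material of another sample was not tested either, and every ES mean or fit that includes it carries that limit. Results are therefore also given without ES replicate 1. Erythroid replicate 3 differed as well. In it 42.7% of HS2 contact pairs had both fragments on chromosome 7, against 27.6% and 24.1% in erythroid replicates 1 and 2 and 46.0% to 60.4% in the ES replicates.

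The flank took a similar share of the contacts of the beta CTCF site in both cell types, while from HS2 the share was lower in 2 of the 3 erythroid replicates than in any ES replicate. From HS2, flank pairs made up 2.02%, 1.74% and 3.65% of all contact pairs in erythroid replicates 1 to 3, and 6.01%, 3.69% and 3.30% in ES replicates 1 to 3. The groups overlapped through erythroid replicate 3. Their means were 2.47% ± 1.03 (SD, n = 3) and 4.33% ± 1.47 (SD, n = 3), an exact two-sided permutation p of 0.2, where 3 against 3 allows none below 0.1. Without ES replicate 1 the ES mean was 3.50%.

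Seen from the CTCF site, the flank share was 8.48%, 7.78% and 10.7% in the erythroid replicates and 10.1%, 9.09% and 7.10% in the ES replicates. These ranges overlapped almost fully, with means of 9.0% ± 1.55 and 8.78% ± 1.54 (SD, n = 3 each, exact permutation p = 0.9). The picture changed with the denominator. From HS2, among pairs with both fragments on chromosome 7, the flank took 6.19%, 5.68% and 7.22% in erythroid and 10.3%, 5.41% and 5.97% in ES replicates. These groups overlapped, with means of 6.36% ± 0.79 and 7.21% ± 2.66 (SD, n = 3 each, exact permutation p = 0.9), and without ES replicate 1 the ES mean of 5.69% lay below the erythroid mean. From beta CTCF, among pairs with both fragments on chromosome 7, the flank took 20.1%, 21.7% and 20.4% in the erythroid replicates and 21.7% in ES replicate 1, but 12.6% and 13.01% in ES replicates 2 and 3. The exact permutation p was 0.4, and leaving out ES replicate 1 put the ES mean at 12.8%, with the erythroid mean at 20.7%. The share of beta CTCF pairs lying wholly on chromosome 7 was 34.1%, 28.4% and 44.7% in erythroid and 40.5%, 62.4% and 45.1% in ES replicates. The change of denominator divides by this share, after flank pairs with a partner off chromosome 7 are left out. Why the share differed between replicates was not tested.

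The flank gained more from moving the viewpoint to the CTCF site in erythroid than in ES cells. The log2 ratio of the beta CTCF flank share to the HS2 flank share of the same replicate was 2.07, 2.16 and 1.56 in erythroid cells and 0.75, 1.30 and 1.1 in ES cells. All erythroid values lay above all ES values. The means were 1.93 ± 0.32 and 1.05 ± 0.28 (SD, n = 3 each), and the exact permutation p was 0.1, the smallest possible. Without ES replicate 1 the ES mean was 1.20.

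Each viewpoint's flank was also set against the mirror range, the stretch at the same distances on the other side of the viewpoint. For HS2 this ratio has a common distance and library, so it does not depend on the off-chromosome share. HS2 made more contacts with the flank than with its mirror range in erythroid cells, with log2 ratios of 1.01, 0.97 and 1.09. In ES cells the ratios were 0.44, -0.85 and -0.59, so that replicate 1 had more contacts in the flank and replicates 2 and 3 had fewer. No ES value reached the erythroid range. The means were 1.02 ± 0.06 and -0.33 ± 0.68 (SD, n = 3 each, exact permutation p = 0.1), with an ES mean of -0.72 without replicate 1. In counts, the erythroid replicates had 5956, 6046 and 24274 flank contacts against 2957, 3095 and 11429 mirror contacts, and the ES replicates had 22256, 4641 and 5506 against 16364, 8345 and 8294. Depth differed, with totals of 222562, 260114 and 464338 HS2 contact pairs in erythroid and 272616, 84849 and 129113 in ES replicates. Relative to these totals, mirror contacts were fewer in every erythroid replicate than in any ES replicate. The higher erythroid ratio is thus no sign of more flank contacts.

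For beta CTCF the mirror range holds the globin genes and the control region. All 6 ratios were below 0, at -0.55, -0.34 and -0.86 in erythroid and -0.47, -0.94 and -0.75 in ES replicates. The CTCF site thus had fewer contacts on the flank side than on the gene side in every replicate of both cell types. The difference between the groups, 0.13, was smaller than the spread between replicates (exact permutation p = 0.5).

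**Figure D1:**
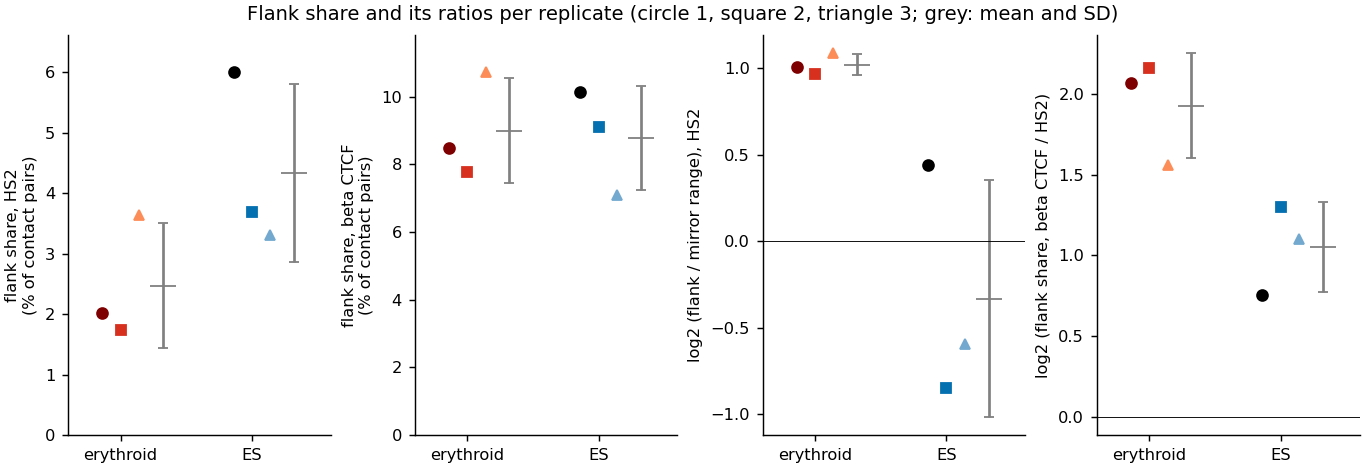
Flank share of all contact pairs from HS2 and from beta CTCF (percent), log2 ratio of flank to mirror-range contacts from HS2, and log2 ratio of the beta CTCF to the HS2 flank share, for each biological replicate (circle, square and triangle are replicates 1, 2 and 3; grey bars are mean and SD, n = 3). The first pair of panels overlap between groups; in the other pair the erythroid values, 0.97 to 1.09 and 1.56 to 2.16, all lie above the ES values.

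Contacts fell with distance across the flank. The slope of log10 counts against log10 distance over the 37 bins was -0.92, -0.95 and -0.96 from beta CTCF in erythroid cells and -0.77, -0.65 and -0.92 in ES cells. The erythroid slopes were all steeper than the ES slopes, with means of -0.94 ± 0.02 and -0.78 ± 0.13 (SD, n = 3 each, exact permutation p = 0.1). Erythroid replicate 1 and ES replicate 3 were separated by less than the ES replicates were among themselves. From HS2 the slopes were -1.47, -1.23 and -1.81 in erythroid and -1.09, -0.42 and -1.14 in ES cells, again without overlap (means -1.5 ± 0.29 and -0.88 ± 0.40, exact permutation p = 0.1). Much of this rested on ES replicate 2, without which the difference in slope went from -0.62 to -0.39 from HS2 and from -0.16 to -0.098 from beta CTCF. Without ES replicate 1 the ES means were -0.79 from beta CTCF and -0.78 from HS2.

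The same was seen in shares of the flank's own contacts. From beta CTCF the 12 bins nearest the CTCF site held 61.3%, 61.5% and 61.5% of flank contacts in erythroid cells and 57.4%, 51.2% and 62.0% in ES cells. The 13 farthest bins held 11.4%, 9.79% and 9.96% in erythroid and 13.9%, 19.7% and 16.9% in ES cells, so every ES replicate gave the far end a larger share. From HS2 the far bins held 17.1%, 21.6% and 13.4% in erythroid and 19.1%, 26.8% and 21.7% in ES cells, which overlapped. These zones were drawn after the profile had been seen and were not tested.

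The profile was not a smooth decay. Some bins were high in both cell types and from both viewpoints, but the order of the bins differed between viewpoints and replicates, and the bin next to the CTCF site, the highest from beta CTCF, had rank 7 in erythroid and rank 16 in ES cells from HS2. Across the 37 bins the Spearman correlation between HS2 and beta CTCF levels was 0.923 in erythroid and 0.846 in ES cells. Levels also followed how many fragments a bin holds, with Spearman values of 0.587 and 0.630 from HS2 and 0.359 and 0.438 from beta CTCF in erythroid and ES cells. The points share libraries, fragment maps and distance order, so these are descriptions of the profile only.

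**Figure D2:**
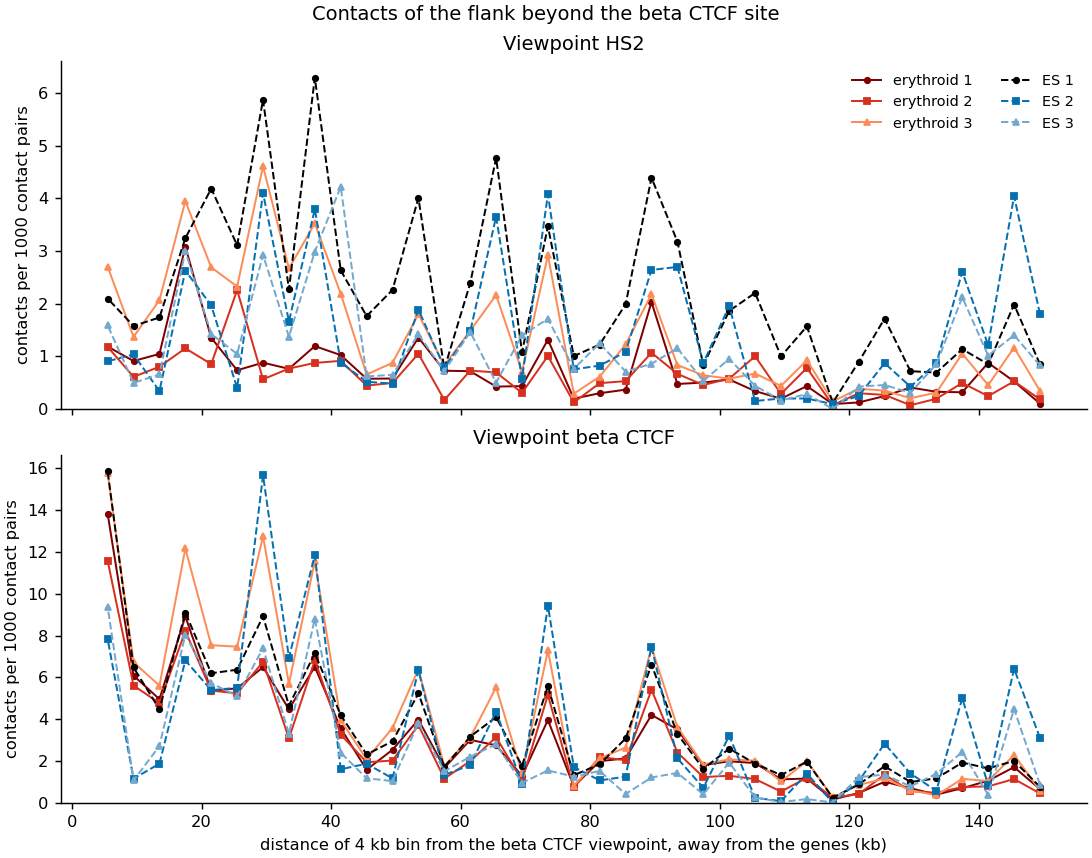
Contacts per 1000 contact pairs in each of the 37 bins of the flank, by distance in kb from the beta CTCF viewpoint, for HS2 (top) and beta CTCF (bottom); solid lines are erythroid and dashed lines ES replicates. From beta CTCF the nearest bin is the highest in every erythroid replicate (11.6 to 15.8 per 1000), while ES replicate 2 is highest at 15.7 per 1000 in the bin chr7:110924001-110928000.

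The highest bin from beta CTCF in both cell types was chr7:110948001-110952000, the one next to the site. Its levels, in contacts per 1000 contact pairs, were 13.8, 11.6 and 15.8 in erythroid replicates and 15.9, 7.83 and 9.37 in ES replicates. ES replicate 1 was the highest of all and the other ES replicates the lowest. The first rank in ES cells rested on replicate 1, since the mean without it was 8.6, below the 11.5 of chr7:110924001-110928000 and the 10.3 of chr7:110916001-110920000. The edgeR quasi-likelihood test gave a log2 change, erythroid over ES, of 0.32 ± 0.24 (SE, n = 3 each, adjusted p = 0.402). The fragments with the most counts from beta CTCF all lay in this bin. The leading fragment in both cell types, chr7:110951772-110951988, had 897, 1049 and 1872 counts in erythroid and 1809, 84 and 94 in ES replicates. It led in ES cells through replicate 1 alone, and in replicates 2 and 3 other fragments of the bin had more counts, 141 and 170. The other leaders were chr7:110949979-110950540 and chr7:110950650-110950791 in erythroid cells, and chr7:110950650-110950791 and chr7:110950815-110951135 in ES cells. Flank contacts were spread over many fragments beyond these, and the 20 leading fragments together held 16.4% of the flank's counts in erythroid and 16.5% in ES cells.

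The bin chr7:110936001-110940000 ranked second from beta CTCF in erythroid cells, at 8.92, 8.22 and 12.2 per 1000 contact pairs, and stood at 9.10, 6.81 and 8.04 in ES cells (log2 change 0.29 ± 0.27, edgeR adjusted p = 0.514). It had the highest erythroid mean from HS2, where its levels were 3.08, 1.15 and 3.95 against 3.24, 2.63 and 3.00 in ES cells (log2 change -0.12 ± 0.64, edgeR adjusted p = 0.938). The groups overlapped from both viewpoints. It held the HS2 fragments chr7:110936114-110936207 and chr7:110936228-110936419, both among the 3 with most erythroid counts. The latter had 144, 6 and 136 counts in erythroid and 26, 47 and 68 in ES replicates, so that erythroid replicate 2 had almost none.

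The bins chr7:110924001-110928000 and chr7:110916001-110920000 were among the 3 highest from HS2 in both cell types by the group mean. In erythroid cells this rested on replicate 3, since without it the former had rank 14 and the latter rank 8. The former stood at 0.88, 0.57 and 4.61 per 1000 contact pairs in erythroid and 5.87, 4.10 and 2.93 in ES cells. Erythroid replicate 3 lay among the ES replicates and the other erythroid replicates far below them (log2 change -1.09 ± 0.64, edgeR adjusted p = 0.253). The latter stood at 1.20, 0.88 and 3.53 against 6.29, 3.8 and 2.99 (log2 change -1.22 ± 0.64, edgeR adjusted p = 0.196). The fragment with most erythroid counts from HS2, chr7:110926500-110926586, lay in the former bin and had 10, 2 and 397 counts in the erythroid replicates, so its rank rests on replicate 3. In ES replicates it had 191, 26 and 34 counts. The leading HS2 fragments of ES cells were chr7:110926305-110926456, with 248, 16 and 65 counts, chr7:110916357-110916508 and chr7:110889425-110889541.

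From beta CTCF both bins were also among the 3 highest of ES cells. The bin chr7:110924001-110928000 stood at 6.49, 6.75 and 12.8 in erythroid and 8.93, 15.7 and 7.39 in ES cells, and chr7:110916001-110920000 at 6.51, 6.82 and 11.6 against 7.15, 11.8 and 8.81. Neither group was set apart, with log2 changes of -0.30 ± 0.28 and -0.16 ± 0.28 (edgeR adjusted p = 0.502 and 0.748). The remaining named bin, chr7:110880001-110884000, completed the 3 highest ES bins from HS2, at 3.47, 4.08 and 1.71 per 1000 against 1.32, 1.01 and 2.92 in erythroid cells (log2 change -0.82 ± 0.68, edgeR adjusted p = 0.491).

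No flank bin passed the test between cell types. From HS2, edgeR's quasi-likelihood test with Benjamini-Hochberg adjustment over 4064 bins of chromosome 7 called 3.35% of bins, and 0 of the 37 flank bins. At an unadjusted p under 0.05, 5 flank bins were lower and 0 higher in erythroid cells. The share of all bins at that threshold was not counted for either viewpoint, so such counts are no result about the flank. DESeq2 called 3 flank bins, all higher, where it called 23.6% of the bins to which it gave an adjusted p. From beta CTCF, edgeR called 0.939% of 10010 bins and again 0 of 37 flank bins. There 3 flank bins were lower and 1 higher at an unadjusted p under 0.05, and DESeq2 called 8, all higher, against 29.7% of all bins with an adjusted p. The opposite directions of the tools go with their scaling. In edgeR with each table's total as library size, the median log2 change was -0.83 over the HS2 flank bins and 0.16 over all HS2 bins. With DESeq2's size factors these were 1.37 and 2.37. The medians from beta CTCF were 0.06 for the flank and 1.48 for all bins in edgeR, and 1.72 and 3.03 in DESeq2. The flank medians were thus lower than those of all tested bins under both scalings, by about the same amount. That order depended on the filter, since with a minimum of 100 counts the median of all HS2 bins was -1.27, below that of the flank. Counting a fragment pair only once in a library, edgeR called 7 HS2 flank bins, all lower in erythroid cells, against 75.8% of the 517 bins then tested. From beta CTCF it called 3 flank bins, of which 2 were lower and 1 was higher, against 51.7% of 1213 bins. In each of these fits the share of flank bins called did not exceed the share of all bins called, so these calls are no result about the flank. Some alternatives from beta CTCF went the other way. The chromosome 7 total and flank contacts as library size each called 3 of 37 flank bins, against 1.19% and 1.6% of all bins. A grid shifted by 2 kb called 1 of 37, against 1.01% of all.

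The bins in which every erythroid replicate was below every ES replicate all lay among the 19 bins farthest from the CTCF site. From HS2 this was so in 9 of 37 flank bins, or 24.3%, against 14.5% of all tested bins, and the reverse held in 0 flank bins against 12.5% of all. From beta CTCF it was so in 6 flank bins, or 16.2%, against 5.18% of all, and the reverse in 2, or 5.41%, against 26.7% of all. The shares of all bins are not matched for depth, since a tested bin needs only 50 counts over all replicates. A bin with 0 counts in an ES replicate cannot have every erythroid replicate below it, and ES replicates 2 and 3 were the shallowest. The contrasts with all bins are therefore no result about the flank. The bin chr7:110816001-110820000 was among those with every erythroid replicate lower from both viewpoints. From beta CTCF it stood at 0.70, 0.75 and 1.14 per 1000 contact pairs in erythroid and 1.92, 5.01 and 2.43 in ES cells (log2 change -1.85 ± 0.56, edgeR adjusted p = 0.087). From HS2 it stood at 0.32, 0.50 and 1.05 against 1.14, 2.60 and 2.12 (log2 change -1.65 ± 0.82, edgeR adjusted p = 0.184). The bin chr7:110808001-110812000, farther out, stood at 0.53, 0.53 and 1.17 from HS2 in the erythroid and 1.98, 4.04 and 1.40 in the ES replicates. From beta CTCF it stood at 1.70, 1.13 and 2.29 against 2.00, 6.42 and 4.48, where ES replicate 1 fell within the erythroid range. The bin between them, chr7:110812001-110816000, overlapped between groups from beta CTCF, at 1.05, 0.78 and 1.04 against 1.65, 0.83 and 0.37 (log2 change 0.0086). These bins, like others named in this and the next paragraph, were chosen after their values were seen.

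Several bins set ES replicates 2 and 3 apart from the other 4 replicates. From beta CTCF the bin chr7:110944001-110948000, the second from the site, stood at 6.08, 5.61 and 6.72 per 1000 contact pairs in erythroid replicates and at 6.47, 1.15 and 1.07 in ES replicates. ES replicate 1 thus lay within the erythroid range, with the other ES replicates several times lower. The log2 change was 1.08 ± 0.41 (edgeR adjusted p = 0.125), and 2.47 without ES replicate 1, which was not called either. Farther out, chr7:110844001-110848000 stood at 1.12, 0.53 and 1.02 in erythroid cells and 1.32, 0.07 and 0.03 in ES cells, and chr7:110848001-110852000 at 1.90, 1.13 and 2.01 against 1.88, 0.23 and 0.25. From HS2 the latter bin stood at 0.34, 1.00 and 0.67 against 2.20, 0.15 and 0.44. There ES replicate 3 lay above erythroid replicate 1, so the bin did not set ES replicates 2 and 3 apart from that viewpoint. Whether depth, strain or the library accounts for the gaps was not tested.

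**Figure D3:**
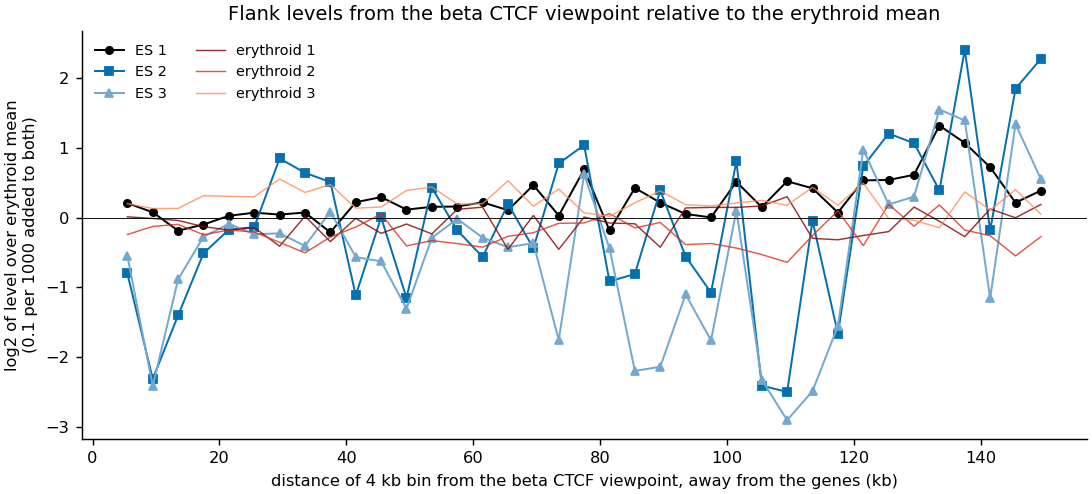
Log2 of each replicate's level over the erythroid mean in the 37 bins, from beta CTCF, by distance in kb from that viewpoint (0.1 contacts per 1000 was added to both). ES replicate 1 stays near the erythroid lines over the nearer part of the flank, while ES replicates 2 and 3 drop at the second bin (1.15 and 1.07 per 1000 against 6.47 in ES replicate 1). Both also drop in the bins at 105.5, 109.5 and 117.5 kb, but not both in those at 101.5 and 113.5 kb.

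The partner is the other fragment that met the viewpoint together with a flank fragment. The flank itself was the largest of the 8 partner segments in all 6 replicates from HS2 and in 5 of 6 from beta CTCF, where ES replicate 3 had more partners below the flank. With single counting of each pair this held in 5 of 6 replicates from HS2 and 1 of 6 from beta CTCF, since partners off chromosome 7 then exceeded those inside the flank in the others. From HS2, 32.2%, 33.6% and 43.3% of flank pairs lay wholly inside the flank in erythroid cells and 35.8%, 48.3% and 29.2% in ES cells. The figures from beta CTCF were 34.1%, 35.0% and 43.5% against 35.1%, 45.1% and 27.2%. The means, 36.4% ± 6.07 and 37.7% ± 9.71 from HS2 and 37.5% ± 5.22 and 35.8% ± 8.98 from beta CTCF (SD, n = 3 each), were closer than the replicates of either group (exact permutation p = 0.8 and 1.0). Without ES replicate 1 the ES means were 38.7% and 36.1%.

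Pairs inside the flank were mostly short. Under 4 kb apart were 81.3%, 85.1% and 78.2% of them in erythroid and 69.4%, 79.5% and 75.4% in ES cells from HS2, and 67.3%, 65.9% and 70.4% against 60.3%, 69.3% and 67.0% from beta CTCF. Pairs over 50 kb apart were 0.48% to 1.98% of inside pairs in erythroid and 2.38% to 3.90% in ES cells from HS2, and 4.61% to 6.21% against 2.79% to 7.19% from beta CTCF.

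Partners in the adult globin genes, taken as chr7:110958000-110982000, were more frequent in erythroid than in ES cells when seen from HS2. They made up 4.95%, 5.08% and 3.86% of flank pairs in erythroid replicates and 2.41%, 0.42% and 0.89% in ES replicates. All erythroid values lay above all ES values, with means of 4.63% ± 0.67 and 1.24% ± 1.04 (SD, n = 3 each, exact permutation p = 0.1, or 0.4 adjusted over the 8 partner segments) and 0.65% in ES cells without replicate 1. HS2's own contacts with these genes were not set beside these shares, so the difference cannot be called particular to the flank. The adult genes took, from beta CTCF, 3.92%, 3.64% and 3.15% against 6.05%, 3.47% and 2.73%, where ES replicate 1 was the highest and the other ES replicates spanned the low end (means 3.57% ± 0.39 and 4.08% ± 1.75, exact permutation p = 0.9).

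Partners in the locus control region, chr7:110998000-111030000, took 11.1%, 11.5% and 9.11% of HS2 flank pairs in erythroid and 10.7%, 4.98% and 7.67% in ES cells. From beta CTCF they took 2.91%, 3.01% and 4.39% against 3.00%, 1.20% and 1.56%. ES replicate 1 overlapped the erythroid replicates both times and the other ES replicates lay below them (exact permutation p = 0.2 for each). The ES means were 7.79% ± 2.86 and 1.92% ± 0.96, and 6.33% and 1.38% without replicate 1, against erythroid means of 10.6% ± 1.27 and 3.44% ± 0.83 (SD, n = 3 each). The viewpoints' own contacts with the control region were not set beside these shares either. Partners in the embryonic genes, chr7:110982000-110998000, took 2.45% to 4.17% against 1.44% to 3.07% from HS2 and 0.84% to 1.17% against 0.58% to 2.38% from beta CTCF. Partners at the CTCF site itself, chr7:110952000-110958000, took 0.44% to 0.73% of HS2 flank pairs in erythroid cells. In ES cells they took 0.79% in replicate 1, 0.38% in replicate 2 and 0.12% in replicate 3. Both segments overlapped between groups from both viewpoints, with exact permutation p between 0.4 and 0.6.

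**Figure D4:**
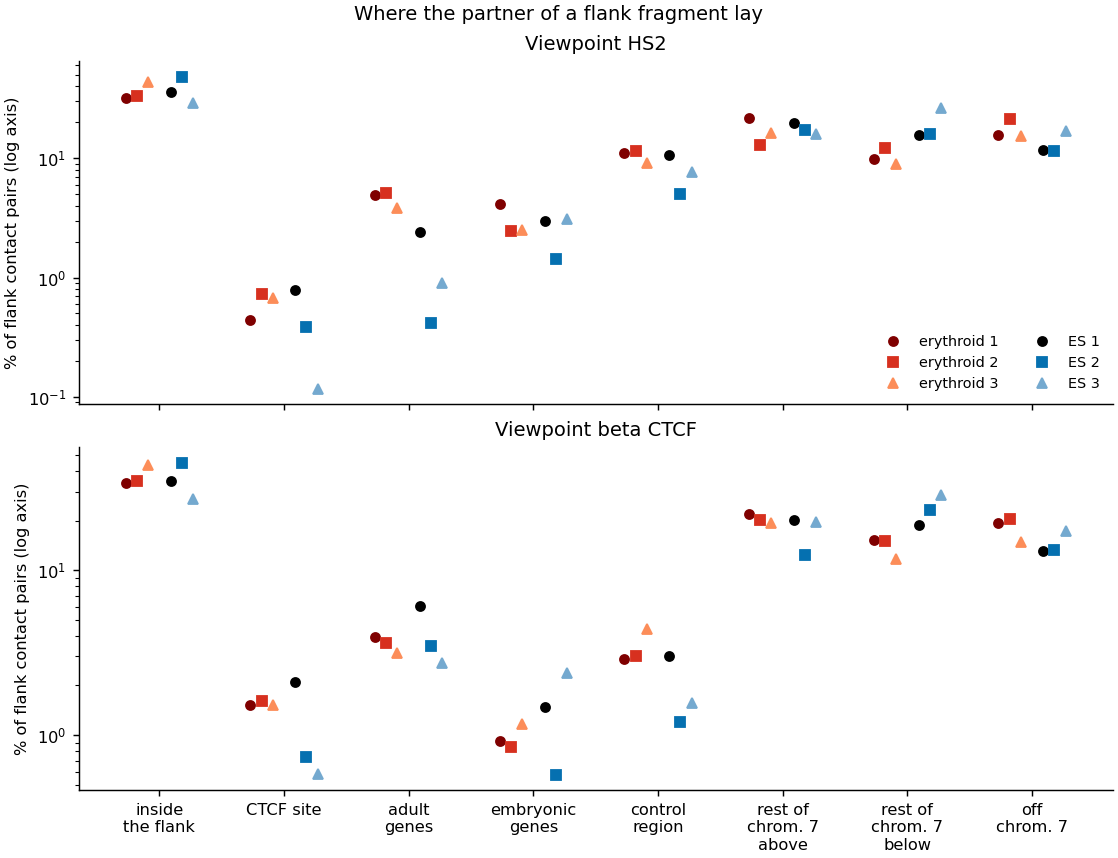
Share of flank contact pairs (percent, log axis) by where the partner fragment lay, for each replicate of both cell types, from HS2 (top) and beta CTCF (bottom). From HS2 the adult gene segment (3.86% to 5.08% in erythroid, 0.42% to 2.41% in ES cells) and the rest of chromosome 7 below the flank separate the groups; from beta CTCF only the latter does.

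Partners farther out on the same side of the locus, at lower coordinates than the flank, were more frequent in every ES replicate. From HS2 they took 9.90%, 12.2% and 8.89% of flank pairs in erythroid and 15.7%, 15.8% and 26.2% in ES cells, with means of 10.3% ± 1.72 and 19.2% ± 6.02. From beta CTCF they took 15.4%, 14.99% and 11.7% against 19.0%, 23.3% and 28.7%, with means of 14.02% ± 2.00 and 23.6% ± 4.87 (SD, n = 3 each). The exact permutation p was 0.1 from both, or 0.4 and 0.533 adjusted over the 8 segments. The ES means without replicate 1 were 21.0% and 26.0%. Without ES replicate 3 the HS2 difference went from -8.89 to -5.42 percentage points, and with single counting the beta CTCF difference went from -9.61 to -5.85. Above the control region, partners took 16.9% ± 4.40 and 17.7% ± 1.93 from HS2 and 20.6% ± 1.25 and 17.4% ± 4.35 from beta CTCF. Partners listed off chromosome 7 took 17.5% ± 3.44 and 13.4% ± 3.01, and 18.3% ± 2.96 and 14.6% ± 2.37, and only their share was used. Neither segment separated the groups (exact permutation p between 0.2 and 0.9).

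The excess in ES cells lay within 1 Mb of the flank. Partners 200 kb to 1 Mb below it took 0.51%, 1.1% and 0.70% of HS2 flank pairs in erythroid and 4.94%, 4.15% and 9.66% in ES cells. From beta CTCF they took 1.5%, 1.00% and 0.88% against 6.52%, 8.79% and 14.5%. Partners within 200 kb took 1.15% to 2.94% against 3.67% to 6.94% from HS2, and 2.02% to 2.25% against 4.41% to 8.11% from beta CTCF. In each of these, ES replicate 1 lay with the ES replicates and outside the erythroid range. Partners 1 to 5 Mb below the flank overlapped from HS2, at 1.44% to 2.33% against 1.02% to 2.49%, and were lower in every ES replicate from beta CTCF, at 2.60% to 3.66% against 1.78% to 2.45%. The viewpoints' own contacts differed in the same stretch, so the partners' difference cannot be called particular to the flank. The stretch 200 kb to 1 Mb below held 8.95, 9.32 and 16.3 contacts per 1000 HS2 contact pairs in erythroid and 93.3, 170.6 and 133.9 in ES cells, and 19.2 to 22.7 against 91.3 to 269.2 from beta CTCF. The distance classes were drawn after the segment shares had been seen, and were not tested.

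**Figure D5:**
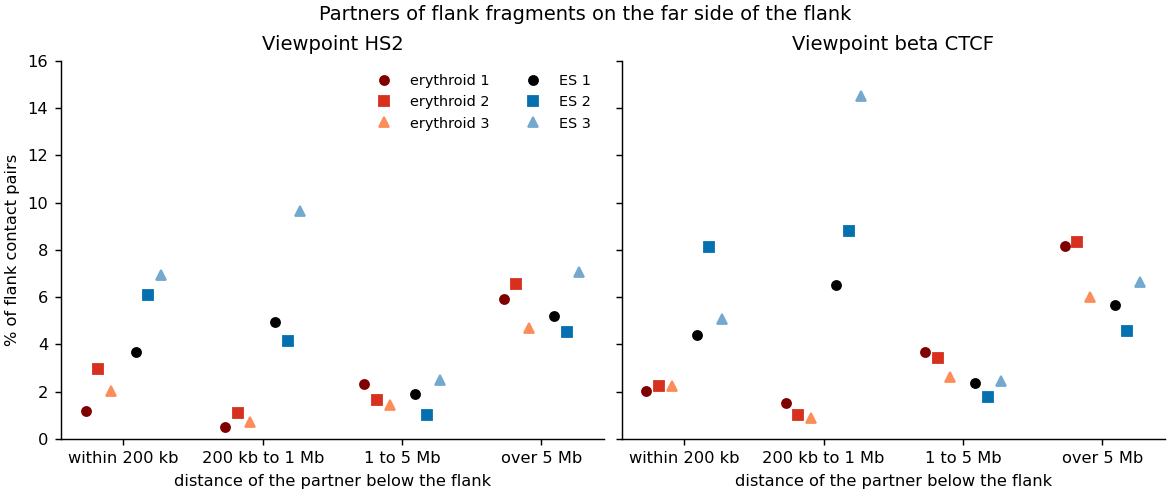
Share of flank contact pairs (percent) whose partner lay below the flank, in 4 classes of distance, for each replicate from HS2 (left) and beta CTCF (right). In the class 200 kb to 1 Mb the erythroid replicates lie between 0.51% and 1.5% and the ES replicates between 4.15% and 14.5%.

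At the scale of single partner bins and bin pairs, few differences were called and most rested on 1 replicate. From HS2, edgeR called 0.421% of 2138 bin pairs and 0 of the 168 that touch the flank. At an unadjusted p under 0.05, 5 flank pairs were lower and 5 higher, and the share of all pairs at that threshold was not counted. DESeq2 called 2 of the 75 flank pairs with an adjusted p, 1 in each direction, where it called 9.88% of all such pairs. From beta CTCF edgeR called 0.332% of 6318 bin pairs and 3 of the 1189 that touch the flank. All 3 were lower in erythroid cells, where each had 0 counts. They met the minimum of 30 counts through ES counts alone, so they could only be called lower, and their direction is no result. DESeq2 called 2 of the 402 flank pairs with an adjusted p, both lower, against 1.03% of all such pairs. The first joined chr7:110712001-110716000 to chr7:110808001-110812000 and had 0, 68 and 0 counts in ES replicates, from 6 distinct fragment pairs. The second joined chr7:110280001-110284000 to chr7:110924001-110928000 and had 0, 4 and 82 counts. The last joined chr7:110816001-110820000 to chr7:110980001-110984000, which spans the border of the adult and embryonic gene segments, and had 6, 0 and 85 counts. The groups overlapped or touched at 0 in all 3, and edgeR's adjusted p was 0.035, 0.042 and 0.044. Without ES replicate 1, edgeR called 0 of 871 flank bin pairs, against 0.0201% of all pairs. Without ES replicate 2 it called 7 of 1161, against 0.79% of all. Without ES replicate 3 it called 8 of 1156, against 1.48% of all.

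Among partner bins of the flank, with flank pairs as library size, edgeR called 0.781% of 128 from HS2 and 1.54% of 714 from beta CTCF. The HS2 call was 1 bin, chr7:109900001-109904000, with 0 counts in each erythroid replicate and 32, 10 and 66 in ES replicates (edgeR adjusted p = 0.0078). It lay within 1 Mb below the flank and met the minimum of 30 counts through ES counts alone. These counts came from 3, 2 and 3 distinct fragment pairs, and the call was lost without ES replicate 1 or 3 and without erythroid replicate 2 or 3. From beta CTCF 11 partner bins were called, all lower in erythroid cells. In 7 of the 11 every erythroid count was 0, so these too met the minimum through ES counts alone and could only be called lower. In 6 of the 11 every ES count came from 1 replicate, and in 7 at least 90% did. The groups did not overlap in 1 of them, chr7:110232001-110236000, with 0, 1 and 0 counts in erythroid and 57, 4 and 41 in ES replicates (edgeR adjusted p = 0.036). It too lay within 1 Mb below the flank, as did 4 of the 11. Without ES replicate 1 edgeR called 17 partner bins, 3 of them higher in erythroid cells. When each fragment pair was counted once per library it called 0 partner bins from either viewpoint.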

How the data were processed

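Whole-number counts of fragment pairs per library were used as the authors deposited them, 1 table per viewpoint, for HS2 and beta CTCF. The submitters' processing notes list Trim Galore, Bowtie and the mm9 build, giving neither versions nor roles; read filters and duplicate removal are not given in the sources used here. Technical replicates were summed. Each viewpoint was placed at the gap in its table's fragments. Bins of 4 kb, bin pairs and partner bins were tested over all of chromosome 7 with edgeR 4.0.16 (quasi-likelihood, R 4.3.3; table total or, for partners, flank pairs as library size; at least 50 counts per bin, 30 per bin pair or partner bin; adjusted p under 0.05), with DESeq2 1.42.0 beside it. Error is log2 change over the root of F. The fit was also run on simulated counts with the same spread set for every bin. That spread was not matched to these data, so the run does not bear on their error. Single shares had exact two-sided permutation tests (scipy 1.17.1). Named bins are the 3 of highest mean level per cell type and viewpoint, plus up to 5 called per direction without overlap; pairs and partner bins followed the latter rule with 3, and fragments were the 3 with most counts. The members, lists and segments were chosen with earlier results of these data known. Alternatives were scaling, minimum counts, grid, counting each pair once, first technical replicates, leaving out replicates and a replicate block.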

Additional observations from a re-analysis of the deposited data

How the results depend on the processing

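Values are erythroid minus ES unless they are counts. Of 180 alternative values of results that answer a comparison, 114 kept their direction and moved by less than 1 SD between replicates (or, for counts, stayed within 1.5 times); 56 moved further and 10 turned sign. Of 240 for single bins and segments, 209 met that rule or stayed on the same side of the test's threshold, 25 turned sign, 2 moved and 4 were called in addition. The HS2 flank share difference of -1.86 points was -0.85 among pairs wholly on chromosome 7 and -1.02 without ES replicate 1. Among pairs wholly on chromosome 7 the difference in the beta CTCF flank share rose to 4.94 percentage points. Counting each fragment pair once turned it to -0.21, and turned the difference in pairs inside the flank to 0.57 points from HS2 and -2.63 from beta CTCF. Partner segments without overlap, 2 from HS2 and 1 from beta CTCF, became 4 from beta CTCF with each pair counted once and 2 with first technical replicates. The latter also gave 3 from HS2, turned the embryonic gene share from beta CTCF to 0.087 points and moved the CTCF site share from HS2 from 0.19 to 0.60 points (exact permutation p = 0.1).

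Against 0 called flank bins from HS2, DESeq2 called 3 (higher in erythroid), each pair counted once gave 7 (lower), first technical replicates 1 (lower; 9.05% of all bins called) and a fit of bins within 250 kb of the viewpoint 6 (lower; 46.8% of all). From beta CTCF, also 0 called, the chromosome 7 total gave 3 (1.19% of all bins called) and DESeq2 8 (all higher), each pair counted once 3 (1 higher), a grid shifted by 2 kb 1 (lower; 1.01% of all), bins within 250 kb 3 (lower; 22.4% of all) and flank contacts as library size 3 (1 higher; 1.6% of all). The 250 kb window and the flank library size were chosen after seeing the data. Both far bins chr7:110808001-110812000 and chr7:110816001-110820000 were among the lower calls from beta CTCF with each pair counted once, within 250 kb and with flank contacts as library size. Flank bin pairs from HS2 rose from 0 to 2 with DESeq2 (9.88% of all pairs called) and to 1 counted once (23.9% of all). The 3 from beta CTCF became 0 with TMM factors, a lower minimum of 15 or counting once. They became 5 with a minimum of 60 (1.87% of all) and 1 with first technical replicates (1.07% of all). The 1 partner bin from HS2 became 0 with TMM factors, a minimum of 60, counting once or first technical replicates. The 11 from beta CTCF became 5 with TMM factors (1 higher) or a minimum of 15, 6 with a minimum of 60, 21 with DESeq2, and 0 counted once or with first technical replicates.

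The log2 changes of named bins turned sign with the scaling or the libraries used. From HS2, chr7:110936001-110940000 turned to 0.56 under the chromosome 7 total, 1.42 under TMM, 2.09 under DESeq2, 0.073 with first technical replicates and 0.61 with flank contacts as library size. With TMM and DESeq2, chr7:110924001-110928000 turned to 0.26 and 0.88, chr7:110916001-110920000 to 0.16 and 0.87, and chr7:110880001-110884000 to 0.75 and 1.37. From beta CTCF, chr7:110924001-110928000 turned to 0.17, 0.36 and 1.42 under the chromosome 7 total, TMM and DESeq2, and chr7:110916001-110920000 to 0.30, 0.52 and 1.57. The median over all HS2 bins rose as well, from 0.16 in the main fit to 2.37 under DESeq2. The turns with scaling are thus not particular to these bins. Which scaling is right was not tested.

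Leaving out 1 replicate at a time gave -5.67 to 3.89 points for pairs inside the flank from HS2 and -2.56 to 6.40 from beta CTCF, and -0.65 to 0.90 for the beta CTCF flank share. Segments without overlap ranged from 2 to 4 and from 1 to 3. Partner shares ranged from -0.010 to 0.85 (embryonic genes, HS2), -3.15 to 1.20 (above, HS2) and -1.20 to 0.47 (adult genes, beta CTCF). Called flank bins from HS2 ranged from 0 to 1 (without erythroid replicate 3, where 5.75% of all bins were called). Called partner bins ranged from 0 to 2 and from 4 to 17. Flank bin pairs from beta CTCF ranged from 0 to 8 (without ES replicate 3, where 1.48% of all pairs were called). The log2 change of chr7:110936001-110940000 from HS2 ranged from -0.48 to 0.25, and from beta CTCF those of chr7:110924001-110928000 and chr7:110916001-110920000 from -0.69 to 0.087 and -0.48 to 0.056.

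The replicate numbers did not pair the samples. Deviations from the group means over the 37 bins correlated between same-numbered replicates at -0.32, -0.33 and -0.09 from HS2 and 0.24, 0.04 and -0.18 from beta CTCF. With the replicate block, edgeR called 0 flank bins and 0 flank bin pairs from both viewpoints, and 0 partner bins from HS2 and 1 from beta CTCF. Depth limits ES replicates 2 and 3 most, with 722 and 944 distinct flank pairs from HS2 and 1810 and 1900 from beta CTCF. These are sums over libraries, so a pair seen in several libraries of a replicate is counted in each.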
